A study of Anas platyrhynchos x Cairina moschata with 137 samples.

Results

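Among the 50 target genes measured by quantitative PCR in the developing liver of mule ducks, 14 had their highest mean relative expression at embryonic day 12 (E12) or 16 (E16). They were chosen by the arithmetic mean over the animals of each stage, so the early maximum itself is a criterion and not a result. The livers came from 137 animals, 1 liver per animal, sampled in 5 embryonic stages (E12, E16, E20, E24 and E28) and on days 1 (D1) and 4 (D4) after hatching. There were 20 animals in each stage apart from E12, E24 and D1, which had 19 each. The mule duck is a cross of the common duck and the Muscovy duck, and no animal received a treatment. Eggs of 1 commercial genotype were incubated together, and between the D1 and D4 samplings the ducklings were moved from the hatcher to a cooler rearing room with a starting diet, so that age, feeding, temperature and transfer cannot be told apart between these stages. Samples were whole liver, in which fewer cells of a type and less RNA per cell cannot be told apart.

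In the bird embryo the liver starts as a growing and differentiating organ and takes up its metabolic work step by step. In the last week of embryonic life the embryo draws its energy mainly from yolk lipid. After hatching the liver has to handle a diet rich in starch and to make fat from it. The assays targeted genes of liver development, of carbohydrate metabolism, of lipid metabolism and of cellular stress. The rows of the tables carry a number and no gene name, so each gene is called by its row number, no function was assigned, and the liver identity could not be checked by markers. The 14 genes were those of rows 3, 16, 23, 25, 28, 31, 35, 45, 46 and 49, highest at E12, and of rows 22, 36, 40 and 41, highest at E16.

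Relative expression is a linear ratio. It sets the Ct of a gene, the amplification cycle in which its fluorescence crosses a threshold, against that of 5 references, and a value of 1 stands for the mean Ct over all animals. It follows a gene across stages and does not compare the levels of different genes. Closest to the limit of the rule was row 40, whose D4 mean was 99.9% of its E16 mean, followed by row 36, with an E20 mean at 99.5% of its E16 mean, and row 45, with an E20 mean at 99% of its E12 mean. Just outside lay row 11, where E20 exceeded E16 by reaching 103% of it (means of 1.42 and 1.38), and row 19, where D4 reached 103% of E12 (means of 1.69 and 1.65).

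Most of the 14 genes were over 50% of their highest mean at E20, under 50% at E24 and lowest on D1, and rows 16, 28, 36, 40 and 46 departed from this course. As a median over the genes, the stage mean was 91.8% of the highest at E16 and 75.6% at E20. It was 32.9% and 23.9% in the E24 and E28 embryos, 9.0% in the D1 ducklings and 36.5% in those of D4. On D4 the range over the genes was from 1.40% to 99.9%. The mean was first under 50% of the highest at E24 in 10 genes, at E16 in row 46, at E20 in row 28, at E28 in row 36 and on D1 in row 16. The lowest mean was on D1 in 11 genes, at E28 in rows 28 and 40, and on D4 in row 46. The ratio of the highest to the lowest stage mean had a median of 11.1 over the 14 genes and ran from 2.80 to 71.6, against a median of 7.94 over all 50 target genes.

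**Figure D1:**
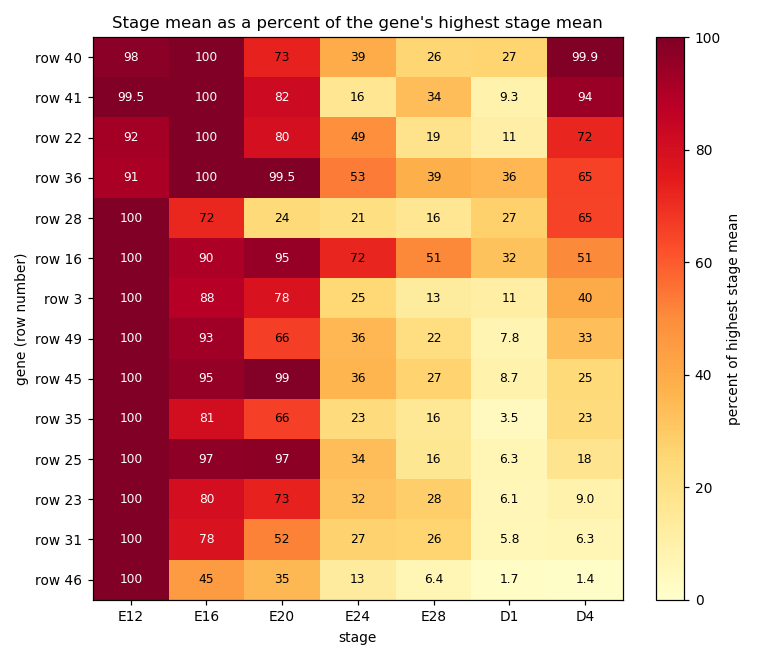
Stage mean of each of the 14 genes as a percent of its own highest stage mean, with stages on the horizontal axis and genes (row numbers) on the vertical axis, ordered by their D4 value. The genes spread from 13.3% to 72.1% at E24, from 1.74% to 35.7% on D1 and from 1.40% to 99.9% on D4.

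At E12 the stage means were 91.3% to 100% of the highest, and at E16 they were 45.1% to 100%. By the test of the methods (ANOVA with Bonferroni comparisons, or Kruskal-Wallis with Dunn comparisons, over the 21 pairs of stages of a gene, threshold 0.05), 0 of the 14 genes were higher and 0 were lower at E16 than at E12, where 2% of the 50 target genes were called in each direction. By limma on log2 values, with Benjamini-Hochberg adjustment over the 50 genes, 1 was lower, row 46, against 6% of the target genes. In this fit 0 were higher, against 12%. Since a gene entered through the higher of these stages, nothing is read from these counts.

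Row 46 stood apart for the size of its decline. At E12 its values ran from 6.21 through a median of 8.74 to 13.3, with a mean of 9.08 ± 2.33 (SD, n = 19). At E16 the kept values ran from 2.46 through 4.24 to 5.03, with a mean of 4.1 ± 0.764 (SD, n = 18). Nothing is read from the difference between these stages, since the gene entered through the higher of them. For 2 further E16 animals the table gives a Ct and no relative expression, and the higher of these, computed from the Ct, was 8.08, inside the E12 range. The mean then went through 3.21 ± 1.70 at E20 (SD, n = 20), 1.21 ± 0.364 at E24 (SD, n = 19) and 0.584 ± 0.355 at E28 (SD, n = 19) to 0.158 ± 0.0816 on D1 (SD, n = 19) and 0.127 ± 0.0680 on D4 (SD, n = 19). The highest kept D4 value, at 0.269, was under the lowest E24 animal, at 0.645. So was 1 further D4 value of 0.467 computed from a Ct.

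**Figure D2:**
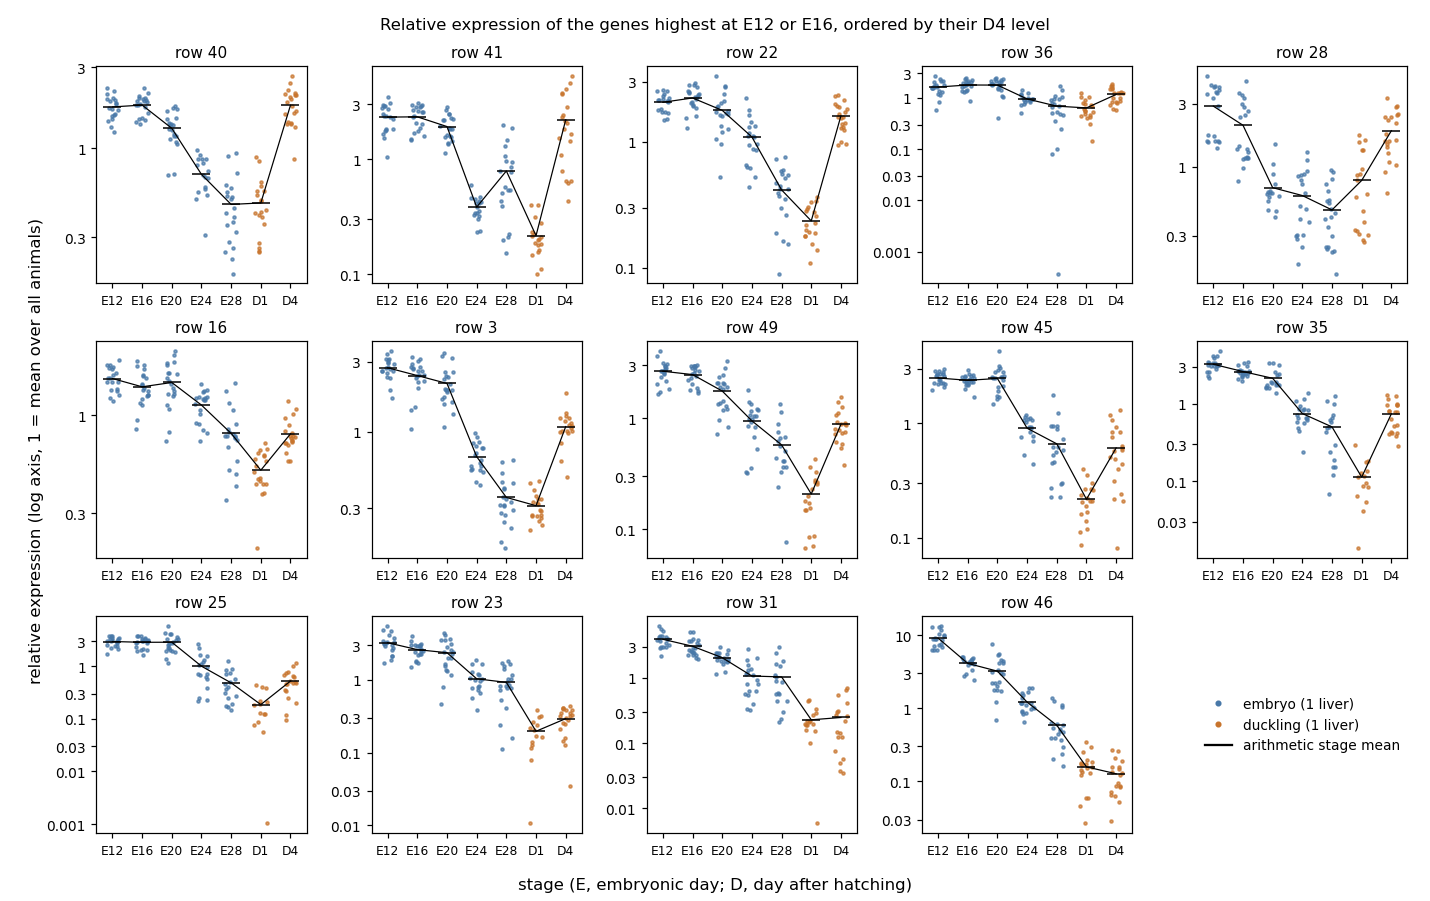
Relative expression of each animal (points, log axis) in the 14 genes by stage, with embryos in blue, ducklings in orange and the arithmetic stage mean in black. Row 40 returned on D4 to a mean of 1.80, as at E16, while row 46 went from 9.08 at E12 to 0.127 on D4.

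The step from E20 to E24 was the most widely shared. By the test of the methods, 10 of the 14 genes were lower at E24 (rows 3, 16, 22, 23, 25, 35, 36, 40, 41 and 45) and 0 were higher, against 46% and 0% of the 50 target genes. By limma on log2 values 13 were lower, all but row 28, against 76%. For 5 further E20 animals of row 28 the table gives a Ct alone, with computed values of 1.71 to 2.23. With these its E20 mean was 1.02 instead of 0.696. The step with them was not called by the test of the methods and was not tested by limma. The difference between mean log2 values, E24 minus E20, had a median of -1.13 over the 14 genes and ran from -2.32 to -0.33, against a median of -0.75 over the 50 target genes. Row 41 had the widest step. Its mean was 1.92 ± 0.475 at E20 (SD, n = 20) and 0.383 ± 0.0908 at E24 (SD, n = 17), and the lowest E20 animal, at 1.14, was above the highest E24 value kept in the table, at 0.593 (Dunn comparison, adjusted p = 4.29e-04). For 2 further E24 animals the table gives a Ct alone, and the higher of these, computed from the Ct, was 1.40, inside the E20 range. Row 16 had the smallest step among the called genes, from 1.49 ± 0.393 (SD, n = 20) to 1.13 ± 0.212 (SD, n = 19), with overlapping animals (Bonferroni comparison after ANOVA, adjusted p = 5.58e-04). The call depended on the references, since 1 of the 14 genes was lower at E24 with the reference of row 54 used alone and 0 with that of row 55. With no reference 2 were lower. In these settings 12, 10 and 10 genes rose from D1 to D4, so the order of the steps was reversed. With the values computed from a Ct added, 7 genes were called at either step, and with Dunn comparisons for every gene 6. The shares of the 50 target genes called in these settings were not counted. The mean Ct of row 54 was 10.2 at E20 and 9.65 at E24, and that of row 55 was 17.4 and 18.5, and the part of these shifts in the result was not tested.

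From E24 to hatching the number of calls rested on the test. At E28, 2 of the 14 genes were lower than at E24 by the test of the methods (rows 16 and 22) and 0 were higher, against 12% and 2% of the target genes, while limma on log2 values gave 10 lower and 1 higher, against 44% and 8%. On D1, 1 gene was lower than at E28 by the test of the methods (row 16) and 0 were higher, against 14% in each direction, while limma gave 10 lower and 1 higher, against 52% and 28%. In the 7 genes tested by ANOVA the comparisons pool the variance of linear values over all stages, which includes the high values of E12 to E20. Dunn comparisons use ranks, and when applied to every gene they called 0 of the 14 at either step. The part of these choices in the counts was not tested. In row 23 the mean was 0.927 ± 0.508 at E28 (SD, n = 20) and 0.197 ± 0.103 on D1 (SD, n = 14), a log2 difference of -2.26 ± 0.29 (SE), with an adjusted p of 0.0612 after ANOVA and of 4.76e-12 by limma.

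Rows 41, 28 and 40 broke the order of the decline, row 40 by having its lowest mean, 0.469, at E28. Row 41 had a mean of 0.383 at E24, 0.789 ± 0.533 at E28 (SD, n = 20) and 0.216 ± 0.0837 on D1 (SD, n = 18), and was the gene that limma called higher at E28 than at E24 (adjusted p = 0.00322). The 2 further E24 values of row 41, computed from a Ct, were 0.823 and 1.40. With them its E24 mean was 0.459, and the rise to E28 with them was not tested by limma. At E28 its animals ran from 0.154 through 0.675 to 1.97, a spread that reached both the E24 values and those of E20. Row 28 was the gene that limma called higher on D1 than at E28 (adjusted p = 0.0126), with means of 0.472 ± 0.238 at E28 (SD, n = 20) and 0.789 ± 0.504 on D1 (SD, n = 19). Neither step was called by the test of the methods (Dunn comparison, adjusted p = 1 for each).

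From D1 to D4, 8 of the 14 genes rose by the test of the methods (rows 3, 16, 22, 28, 36, 40, 41 and 49) and 0 fell, against 54% and 2% of the 50 target genes. The members' share of 57.1% thus lay near that of all target genes. By limma on log2 values 12 rose, all but rows 31 and 46, and 0 fell, against 78% and 10%. The arithmetic mean was higher on D4 than on D1 in 13 of the 14 genes, with a median ratio of 2.80 and a range from 0.805 to 10.2. In rows 3, 22 and 41 every D4 value kept in the table lay above every D1 value, which held in 28% of the target genes. With the values computed for animals that have a Ct alone, this held in rows 3 and 22 and in 18% of the target genes. The rule set an upper limit to the D4 mean, which had to stay under that of E12 or E16.

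**Figure D3:**
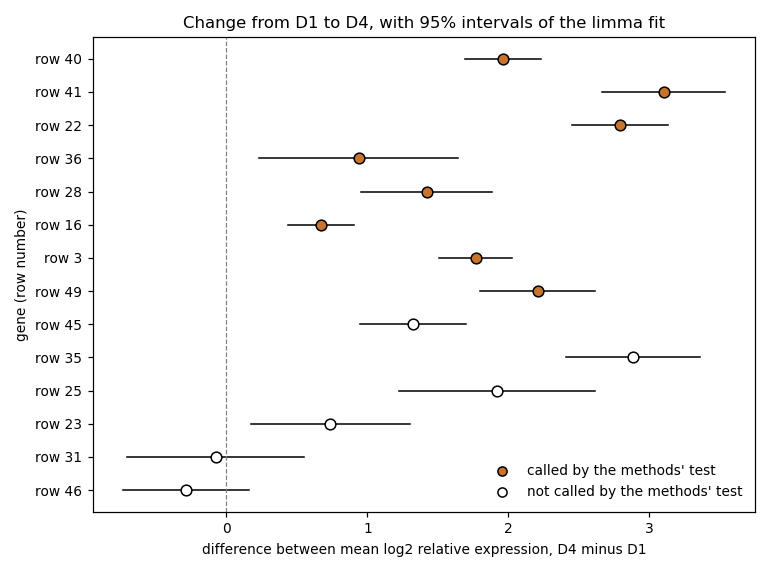
Difference between mean log2 relative expression, D4 minus D1, with the 95% interval of the limma fit on the horizontal axis, for the 14 genes ordered by their D4 level. Filled points mark the 8 genes called by the test of the methods, and the intervals of rows 31 and 46 include 0.

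In 6 genes (rows 16, 22, 28, 36, 40 and 41) the D4 mean was over 50% of the highest stage mean, and in rows 40 and 41 it was over 90%. With all 5 references, row 40 is the clearest case of a return. With single references its D4 mean was 32.1% to 100% of the highest, and with that of row 53 its rise from D1 was not called. Its values at E16 ran from 1.39 through a median of 1.85 to 2.26 with a mean of 1.80 ± 0.244 (SD, n = 20), and those on D1 from 0.246 through 0.433 to 0.890 with a mean of 0.478 ± 0.181 (SD, n = 19). On D4 they ran from 0.864 through 1.83 to 2.66 with a mean of 1.80 ± 0.428 (SD, n = 20). Of the 20 D4 animals 17 reached the lowest E16 animal, and 19 lay above all D1 animals. The difference from D1 to D4 was 1.96 ± 0.14 on the log2 scale (SE), with an adjusted p of 1.00e-28 (Bonferroni comparison after ANOVA).

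Row 41 rose from 0.216 ± 0.0837 on D1 (SD, n = 18), with animals from 0.101 through 0.200 to 0.398, to 2.20 ± 1.44 on D4 (SD, n = 20), with animals from 0.431 through 1.94 to 5.25. The kept values did not overlap (Dunn comparison, adjusted p = 6.83e-08), but 1 further D1 animal had a computed value of 0.754, and 16 of the 20 D4 animals lay above it. On D4 the animals of row 41 were far more spread than at E16, where they ran from 1.47 through 2.46 to 3.07, and 13 of the 20 D4 animals reached the lowest E16 animal. Row 22 had a mean of 0.235 ± 0.0737 on D1 (SD, n = 18) and rose to 1.60 ± 0.422 on D4 (SD, n = 20), which was 72.1% of its E16 mean of 2.22 ± 0.446 (SD, n = 20), and 16 of the 20 D4 animals reached the lowest E16 animal, at 1.29 (Bonferroni comparison of D1 and D4 after ANOVA, adjusted p = 8.11e-17).

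Rows 36 and 16 had the smallest range of stage means, with the highest 2.80 and 3.09 times the lowest. Row 36 held 1.62 ± 0.507 at E12 (SD, n = 19), 1.77 ± 0.409 at E16 (SD, n = 18) and 1.77 ± 0.50 at E20 (SD, n = 20), and rose from 0.634 ± 0.275 on D1 (SD, n = 19) to 1.16 ± 0.383 on D4 (SD, n = 20; adjusted p = 0.00190 after ANOVA). At E28 it had 1 animal at 0.000373, with a Ct of 32.5, where the next lowest animal had 0.0797. Without this animal the log2 difference from E24 to E28 was -0.69 instead of -1.22, and that from E20 to D4, -0.60 in both fits, had an adjusted p by limma of 0.00513 instead of 0.103. Row 16 went from 1.57 ± 0.233 at E12 (SD, n = 19) through 0.508 ± 0.126 on D1 (SD, n = 19) to 0.795 ± 0.162 on D4 (SD, n = 20), close to its E28 mean of 0.799 ± 0.288 (SD, n = 20). The rise from D1 was 0.67 ± 0.12 on the log2 scale (SE; adjusted p = 0.0162 after ANOVA).

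In 6 other genes the D4 mean stayed under 25% of the highest (rows 23, 25, 31, 35, 45 and 46), and rows 3 and 49 lay between, at 39.7% and 33.2%. Row 35 had the deepest low point after row 46, with a mean of 3.22 ± 0.645 at E12 (SD, n = 19) and of 0.113 ± 0.0706 on D1 (SD, n = 14). On D4 it was at 0.741 ± 0.309 (SD, n = 20), 6.54 times the D1 mean and 23% of the E12 mean, with animals from 0.289 through 0.782 to 1.29. Of its 20 D4 animals 19 lay above all kept D1 values, and 14 above the 1 further D1 value computed from a Ct, at 0.481. The Dunn comparison gave an adjusted p of 0.110, whereas limma gave a log2 difference of 2.88 ± 0.24 (SE, adjusted p = 8.73e-22). In row 35, 5 values over all stages had no Ct and entered neither the means nor these tests. When such values were placed at 35 cycles, the test of the methods called the rise of row 35. Rows 25 and 45 were likewise higher on D4 by limma, by 1.92 ± 0.35 and 1.33 ± 0.19 on the log2 scale (SE; adjusted p = 3.41e-07 and 3.12e-10), and had an adjusted p of 1 and 0.797 by the test of the methods.

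Rows 3 and 49 rose after hatching to D4 means of 39.7% and 33.2% of the highest. That these stayed under the early mean was set by the rule. With single references the D4 level was 12.5% to 97.2% in row 3 and 11.7% to 81.8% in row 49. Between E20 and E24 the kept values of rows 3, 35, 41 and 45 did not overlap. Among the target genes outside the 14, this held in row 8 alone. With the values computed from a Ct added, only rows 3 and 8 of these stayed apart. Row 3 had E20 animals from 1.07 through 1.94 to 3.41. They all lay above its E24 animals, from 0.434 through 0.642 to 0.972 (Bonferroni comparison after ANOVA, adjusted p = 3.38e-20). It was then at 0.356 ± 0.131 at E28 (SD, n = 20) and 0.313 ± 0.0687 on D1 (SD, n = 19), the smallest spread relative to the mean among the 14 genes on D1. On D4 it rose to 1.08 ± 0.286 (SD, n = 18; adjusted p = 5.35e-07 after ANOVA). Row 49 declined in more even steps, from 2.65 ± 0.621 at E12 (SD, n = 19) to 1.76 ± 0.669 at E20 (SD, n = 20), 0.946 ± 0.384 at E24 (SD, n = 19) and 0.575 ± 0.321 at E28 (SD, n = 17). It rose from 0.207 ± 0.103 on D1 (SD, n = 18) to 0.880 ± 0.295 on D4 (SD, n = 19; Dunn comparison, adjusted p = 0.0292), and 18 of the 19 D4 animals lay above all kept D1 values. The 1 further D1 animal with a Ct alone had a computed value of 1.69, above all of these 19.

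Rows 25 and 45 were still near their highest mean at E20 and were among the genes with a low D4 mean. In row 25 the means were 2.95 ± 0.583 at E12 (SD, n = 19), 2.85 ± 0.644 at E16 (SD, n = 20) and 2.86 ± 1.13 at E20 (SD, n = 20), and at E24 it was lower, at 1.00 ± 0.672 (SD, n = 18; adjusted p = 1.27e-13 after ANOVA). It reached 0.187 ± 0.135 on D1 (SD, n = 14), with animals from 0.00104 through 0.155 to 0.445, and 6 of its values over all stages had no Ct. Its next lowest D1 animal had 0.0573, and the rise to D4 without the lowest was not tested. Row 45 had the smallest early spread relative to the mean among the 14 genes, with 2.49 ± 0.298 at E12 (SD, n = 19) and 2.38 ± 0.275 at E16 (SD, n = 20), and was lower at E24, at 0.909 ± 0.220 (SD, n = 16), than at E20 (Dunn comparison, adjusted p = 0.00528). Row 23 had 3.25 ± 1.02 at E12 (SD, n = 19) and 0.294 ± 0.111 on D4 (SD, n = 20), when 4 of the 20 animals lay above all kept D1 values and 0 above the further D1 value of 0.789 computed from a Ct. From D1 to D4 its log2 difference was 0.74 ± 0.29 (SE), with an adjusted p of 0.0132 by limma and of 1 after ANOVA. The lowest D1 animal of row 23 had 0.0107 and the next lowest 0.0788, and the difference without the lowest was not tested. In row 23, 4 values over all stages had no Ct. With values without a Ct placed at 35 cycles, the test of the methods called neither row 23 nor row 25 higher on D4 than on D1, and limma was not run on them. A permutation test of log2 means called 11 of the 14 genes higher on D4 than on D1, and row 23 was not among them. The share of the 50 target genes called by the permutation test was not counted, and that called by limma was 78%.

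Rows 31 and 46 showed no detectable rise. Row 31 went from 3.92 ± 1.02 at E12 (SD, n = 19) to 0.228 ± 0.117 on D1 (SD, n = 16) and 0.248 ± 0.207 on D4 (SD, n = 18), a log2 difference of -0.08 from D1 to D4 with a 95% interval from -0.70 to 0.55 (limma, adjusted p = 0.808). The kept D4 values, from 0.0344 through 0.183 to 0.698, covered most of the range kept on D1, from 0.00592 through 0.203 to 0.467. The next lowest D1 animal had 0.0999. Further values of row 31 computed from a Ct were 0.787 and 0.894 on D4 and 0.662 on D1, and 4 values over all stages had no Ct. With the computed values the means were 0.254 on D1 and 0.307 on D4. The difference with them, or without the lowest D1 animal, was not tested by limma. For row 46 the log2 difference was -0.29 with an interval from -0.73 to 0.16 (limma, adjusted p = 0.219). In 7 genes (rows 23, 25, 31, 35, 45, 46 and 49) no kept D4 value reached the lowest animal of the gene's highest stage. This held in 26% of the target genes. In row 49, 1 further D4 animal with a Ct alone had a computed value of 2.08, above the lowest E12 animal, at 1.67. Nothing is read from the count of genes because the rule chose that stage.

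Set against E28, the last stage before hatching, 6 of the 14 genes were higher on D4 by the test of the methods (rows 3, 22, 28, 36, 40 and 41) and 0 were lower, against 54% and 8% of the target genes. By limma 8 were higher and 3 were lower (rows 23, 31 and 46), against 68% and 24%. Set against E20, 2 genes were higher on D4 (rows 28 and 40) and 9 were lower (rows 3, 16, 23, 25, 31, 35, 36, 45 and 46) by the test of the methods, against 44% and 40% of the target genes, and by limma 2 were higher and 9 were lower, against 46% and 42%. Neither row 28 nor row 40 was called higher on D4 with the missing values restored from their Ct or with no reference. The same held with the reference of row 51, 52 or 53 alone and with that of row 55 left out. In row 40 the 2 restored values were at E24, so the E20 and D4 values compared were unchanged. Dunn comparisons for every gene did not call row 40 either, but called row 28 higher. The rule bears on the counts of lower genes, as it kept D4 under the early maximum. For comparison, in the 13 genes highest at E20 the D4 mean was a median of 16.9% of the highest, from 7.92% to 81.8%, a difference from the 36.5% of the genes described here that was not tested.

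Among the alternatives run, the choice of references moved the D4 level most. All 14 genes had an earlier mean Ct on D4 than on D1. The change in mean Ct ran from -4.22 to -1.03 cycles with a median of -2.87, against a median of -2.66 over the 50 target genes. Over the same interval the mean Ct of the references changed by -2.24 cycles in row 51, by -1.90 in row 52, by -2.89 in row 53, by 1.59 in row 54 and by -0.66 in row 55. With the reference of row 53 alone, 0 of the 14 genes rose from D1 to D4, the mean was higher on D4 in 6, and the median D4 level was 12.1% of the highest mean. With the reference of row 55 alone it was 89.5%. With rows 51 or 52 alone 3 genes rose from D1 to D4 (rows 22, 40 and 41). The share of all 50 target genes called in these settings was not counted. A shift in the 14 genes thus cannot be told from a shift in all genes. With no reference the median D4 level was 29.8%, and the other alternatives of missing values, animals and stage summary lay between 35.6% and 39.7%. The tables do not say which of these rows is luciferase, the RNA added to each sample, and the part of the reference shifts in the D4 level was not tested.

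**Figure D4:**
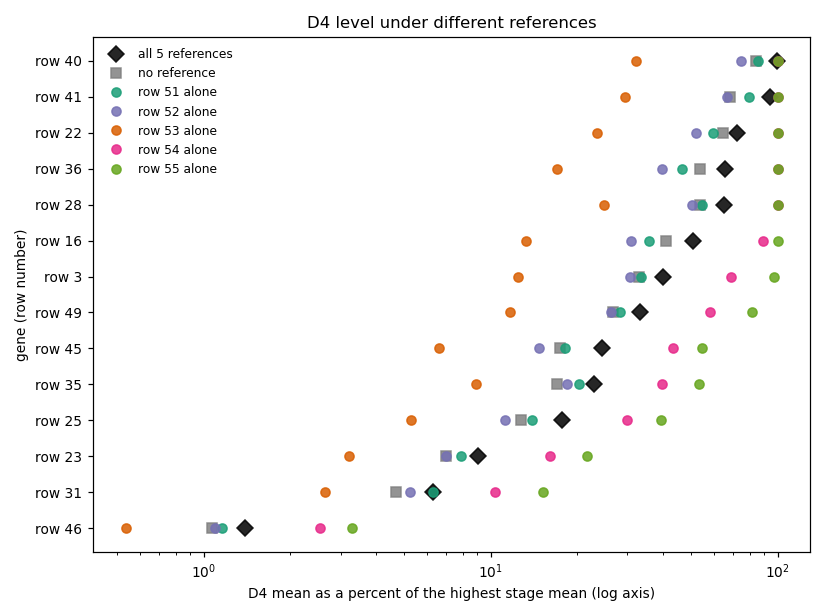
D4 mean as a percent of the highest stage mean (log axis) for the 14 genes with all 5 references, with each reference alone and with none. The median over the genes ran from 12.1% with row 53 alone to 89.5% with row 55 alone, against 36.5% with all 5.

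The early maximum was held to a different degree by the genes. Rows 31, 46 and 49 were highest at E12 or E16 under all 16 alternatives of references, missing values, animals and stage summary, and these were also the 3 genes that were so with each of the 5 references alone. With no reference all 14 were highest at E12 or E16, as were 23 of the 50 target genes. With each reference alone 5 to 9 of the 14 were. Rows 22, 36 and 41 were highest at another stage with each of the 5 references alone, although they were highest at E16 with all 5. In row 46 the D4 mean was 0.535% to 3.28% of the highest with single references, and in row 40 it was 32.1% to 100%.

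Row 28 had a wide gap among the animals of E12. At E12, 8 animals lay between 1.39 and 1.75 and 11 between 2.90 and 4.83, with none between, and the means of these animals were 1.58 and 3.82. At E16, 11 animals lay between 0.784 and 1.44 and 9 between 2.37 and 4.47, with means of 1.19 and 3.13. The widest gap, with at least 4 animals on each side, took up 40.8% of the log2 range at E12 and 28.7% at E16, and in the other genes it was at most 28.9% in any stage. At E20, 5 animals of row 28 had a Ct and no relative expression. Computed from the Ct these were 1.71 to 2.23, all above the 15 values kept, which ran from 0.414 to 1.49, and with them the E20 mean was 1.02 ± 0.627 (SD, n = 20) instead of 0.696 ± 0.270 (SD, n = 15). On D4 the animals ran from 0.635 through 1.68 to 3.32 with a mean of 1.87 ± 0.735 (SD, n = 20), 65.2% of the E12 mean of 2.87 ± 1.20 (SD, n = 19), and 15 of 20 reached the lowest E12 animal. On D1 the mean had been 0.789 (Dunn comparison of D1 and D4, adjusted p = 0.00366).

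Over the 14 genes, 20 of 1918 possible values had no Ct, 1.04%, against 1.42% over all target genes. These values lay in rows 23, 25, 31, 35 and 49, and 15 of the 20 were on D1. A further 50 values, 2.61%, had a Ct and no relative expression, and when computed from the Ct 49 of them exceeded the whole range kept for that gene at that stage and 1 was under it. The spread within a stage, as SD in percent of the mean, had a median over the genes of 21.7% and 21.8% at E12 and E16. It was 29.6% at E20 and 33.1% at E24, peaked with 57.3% at E28, and was 46.6% and 38.5% in the ducklings of D1 and D4. Over all target genes the median was 23.6% at E12 and 50.8% at E28. The early stages thus had the smallest relative spread.

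Once stage means were removed, the genes varied together only weakly from animal to animal. Over the 91 pairs of the 14 genes, Pearson's r of log2 deviations from the stage mean across up to 137 animals had a median of 0.20 and ran from -0.11 to 0.71, against a median of 0.13 over the 1225 pairs of all target genes. All genes share the references of an animal, which enter every r. The pair of rows 41 and 45 was the closest (r = 0.71, 131 animals), with r of 0.82 at E28 (19 animals) and 0.88 on D4 (20 animals) but 0.22 at E24 (16 animals) and 0.04 on D1 (17 animals). Their D4 means were nevertheless at 94.2% and 24.5% of their highest. The next pair was that of rows 23 and 45 (r = 0.53, 127 animals).

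**Figure D5:**
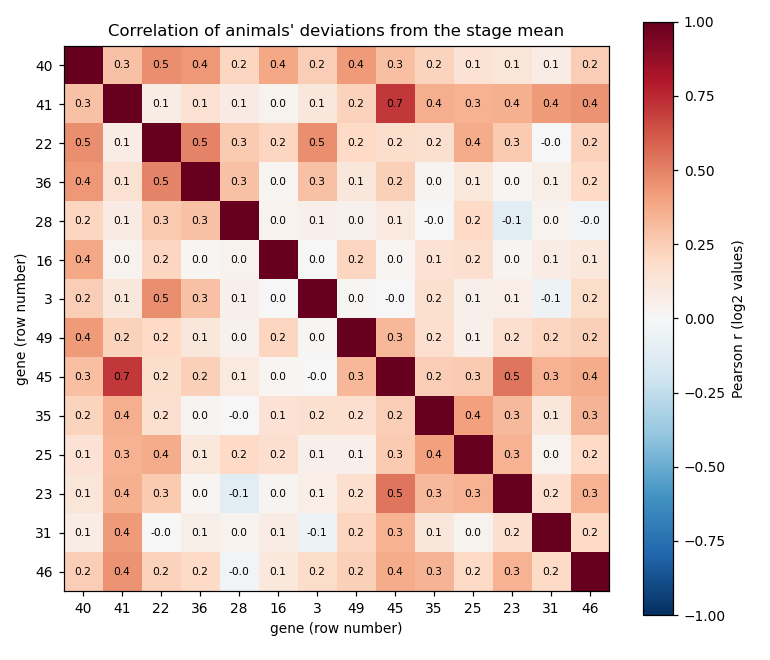
Pearson's r between the 14 genes of the animals' log2 deviations from their stage mean, with genes (row numbers) on both axes in the order of their D4 level. Most values are weak, with a median of 0.20, and rows 41 and 45 are the closest pair at 0.71.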

How the data were processed

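Per the labels and methods, liver RNA was reverse-transcribed, preamplified and read on microfluidic arrays with EvaGreen. The authors deposited the Ct of 55 rows, which is no read count but a cycle score set by their software, and the relative expression of 50 target rows, a linear ratio to the geometric mean of 5 references with an efficiency of 2. Recomputed from the deposited Ct, it differed by at most 0.0028 on the log2 scale. The labels gave each animal its stage. Stage means were taken over animals with a value, 14 to 20 per gene and stage in the 14 genes, with nothing imputed. The precision of a stage mean depends on the number of animals and on their spread, and no depth applies.

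All 50 rows were tested and the 14 are described. As in the methods, Shapiro-Wilk tests within stages chose ANOVA with Bonferroni comparisons (7 of the 14) or Kruskal-Wallis with Dunn comparisons (7 of the 14) over 21 pairs of stages at 0.05. No test of E12 or E16 against a stage from E20 on is reported, since the rule used these differences, although the adjustment covers all pairs. Differences of mean log2 values with SE came from limma 3.58.1 in R 4.3.3, with Benjamini-Hochberg adjustment over 50 rows in each pair of stages. Procedures were tested on simulated data. Python 3.11.15 with scipy 1.17.1 was used. The members, lists and tests were chosen with earlier results of these data known. The genes given in detail were those with the largest and smallest ratio of highest to lowest mean, those with the highest and lowest D4 level (2 each) and all highest at E16, and others were added after their values were seen. Alternatives were other references, missing values, animals, stage summaries, tests and the replicate number as a block.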

Additional observations from a re-analysis of the deposited data

How the results depend on the processing

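All counts here are of the 14 genes unless stated, called by the test of the methods. Apart from limma without the block, the share of all target genes called was not counted under the alternatives. With all 5 references they were 10 from E20 to E24, 2 from E24 to E28, 1 from E28 to D1, 8 from D1 to D4, 6 from E28 to D4 and 11 from E20 to D4, and the median D4 level was 36.5%.

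With the reference of row 51 alone, 9 of the 50 target genes were highest at E12 or E16 instead of 14, and 1 gene was called from E24 to E28, 6 from E28 to D1, 3 from D1 to D4 and 5 from E28 to D4, 3 of these 5 lower on D4. With row 52 alone, 8 target genes were highest early, the D4 level was 28.4%, and the calls were 1 from E24 to E28, 0 from E28 to D1, 3 from D1 to D4 and 2 from E28 to D4. With row 53 alone, 7 target genes were highest early, the D4 level was 12.1%, and the calls were 1 from E24 to E28, 2 from E28 to D1, 0 from D1 to D4 and 4 from E28 to D4, all 4 lower on D4. With row 54 alone, the D4 level was 63.6% and the calls were 1 from E20 to E24, 0 from E24 to E28, 0 from E28 to D1, 10 from E28 to D4 and 4 from E20 to D4, 3 of these 4 higher on D4. With row 55 alone, the D4 level was 89.5% and the calls were 0 from E20 to E24, 0 from E24 to E28 and 8 from E20 to D4, 7 of these 8 higher on D4.

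Calls from E28 to D1 were 0 with row 51, 53 or 55 left out and 4 with row 54 left out, which also gave 4 from D1 to D4. The D4 level was 46.1% with row 53 left out and 29.5% with row 55 left out, which also gave 1 call from E24 to E28. With no reference, 23 target genes were highest early, and the calls were 2 from E20 to E24, 1 from E24 to E28, 0 from E28 to D1 and 6 from E20 to D4. With the values without a relative expression restored, 1 gene was called from E24 to E28 and 7 from E20 to D4. With values without a Ct placed at 35 cycles, 2 were called from E28 to D1.

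By limma on log2 values and by the permutation test of log2 means, 11 genes were called from E24 to E28, 11 from E28 to D1 and 11 from E28 to D4. The fit with the replicate number as a block (replicate block) gave 11, 11 and 11 for these and 13 from E20 to E24, 12 from D1 to D4 and 11 from E20 to D4, as without the block. Animals of the same number are different animals, and their deviations from the stage means had a mean correlation of 0.00. Kruskal-Wallis and Dunn comparisons for every gene gave 6 calls from E20 to E24, 0 from E24 to E28 and 0 from E28 to D1. Benjamini-Hochberg adjustment over all genes and pairs gave 5 from E24 to E28 and 6 from E28 to D1. The other totals stayed within 1.5 times, or within 1 SD for the D4 level, but some hide a change of direction. From E28 to D4 the 6 calls were all higher, against 4 higher and 4 lower with row 54 left out and 6 higher and 3 lower with Benjamini-Hochberg adjustment over all pairs. From E20 to D4 the 11 calls were 2 higher and 9 lower, against 0 higher and 11 lower with row 51 or 52 alone, 0 and 13 with row 53 alone, 0 and 10 with row 55 left out and 1 and 11 with row 54 left out. With no reference and with restored values 0 were higher. The cause of these changes was not tested. The alternatives for single animals of row 36, for row 28, for the direction of calls and for the overlap of animals with restored values were chosen after seeing the data.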
